A study of Homo sapiens with 4 samples.

Results

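The genes described here are 10 enzymes that make serine and move carbon units between serine, glycine and folate: PHGDH, PSAT1 and PSPH of serine synthesis, SHMT1, MTHFD1 and ALDH1L1 of the cytosolic folate cycle, and SHMT2, MTHFD2, MTHFD1L and ALDH1L2 of the mitochondrial folate cycle. They were taken by symbol from 56865 genes with a listed transcript, and all 10 passed the filter on low counts, which left 19358 genes for testing. RNA was sequenced from MDA-MB-468, an established breast cancer line that the labels class as triple negative and also spell MDA-MD-468. At passage 12, 2 cultures received MS1943 at 5 µM for 3 days and 2 received the solvent DMSO, for which no time is given. The series title calls MS1943 a degrader of EZH2, a histone methyltransferase, and no EZH2 protein was measured here. All 4 libraries come from 1 cell line at 1 passage, and the 2 libraries of a group are not said to come from separate experiments, so the p-values measure only how far these samples differ, and that spread may be technical.

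Serine is made from the glycolytic intermediate 3-phosphoglycerate by PHGDH, PSAT1 and PSPH acting in turn, and serine hydroxymethyltransferases then pass a carbon unit from serine to tetrahydrofolate and release glycine. The cytosol and the mitochondrion each hold a set of folate enzymes: mitochondria usually break down serine and export formate, and the cytosol uses that formate for purines, thymidylate and methyl groups. In many breast cancer lines of the basal type the pathway is strongly expressed, and MDA-MB-468 is known for extra copies of PHGDH.

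The 4 libraries held 47564377 to 71378893 estimated reads. Reads of the mitochondrial genome made up 1.64% and 1.77% with DMSO and 3.50% and 3.09% with MS1943. The EZH2 transcript stood at 126 and 117 reads per 1e6 reads (CPM, TMM-scaled) with DMSO and at 104 and 108 CPM with MS1943. It was lower by a log2 fold change of -0.19 ± 0.06 (SE; edgeR adjusted p = 0.0061). Epithelial and basal markers were present at a summed 9577 and 9635 CPM with DMSO and 16337 and 15109 CPM with MS1943. Of these 9 genes, 5 were higher and 2 lower, so the sum does not stand for each of them. CDH1 and KRT19 were lower, and EPCAM and KRT18 were not called. Of the markers of other cell types, PTPRC and CD3E of leukocytes and COL1A2 and DCN of fibroblasts had 14 reads or fewer in every library. The fibroblast marker COL1A1, a collagen chain, was higher with MS1943, at 21.1 and 20.7 CPM with DMSO and 31.3 and 27.9 CPM with MS1943, and PDGFRB was called higher at 0.301 CPM or less. The endothelial markers PECAM1, VWF and CDH5 were called lower, at 0.987 CPM or less in every library. VWF and CDH5 passed the filter on low counts only through the DMSO libraries, and PDGFRB only through the MS1943 libraries. For these genes the filter favoured the direction of the call. CD68, a lysosomal glycoprotein used as a macrophage marker, stood at 1.08 and 0.826 CPM with DMSO and at 32.0 and 29.7 CPM with MS1943, and the part of these markers in the results was not tested. Of the genes tested, 5799 were higher and 5689 lower with MS1943 at an adjusted p under 0.05 (quasi-likelihood test of edgeR, Benjamini-Hochberg over all tested genes). Scaling by total reads in place of TMM moved that split to 4619 higher and 6973 lower and the median over all tested genes from -0.01 to -0.12 in log2 fold change.

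With MS1943, the 4 mitochondrial folate enzymes and 2 of the 3 enzymes of serine synthesis were higher, and 2 of the 3 cytosolic folate enzymes were lower. SHMT2 is counted there as a whole gene, and its transcripts, described below, did not all move in the same direction. ALDH1L2, the mitochondrial 10-formyltetrahydrofolate dehydrogenase, rose 3.51-fold, and SHMT1, the cytosolic serine hydroxymethyltransferase, fell to 0.623 of its level. In counts, 6 of the 10 members were higher and 2 lower, and PSPH and ALDH1L1 did not pass the test. Changes were common in these libraries: 59.3% of all tested genes were called, and 30.0% of all tested genes were higher and 29.4% lower, so a call alone sets no member apart. The share of all tested genes without overlap between the groups was not computed, so lack of overlap sets no member apart either. The members' median log2 fold change was 0.46, beside -0.01 over all tested genes. The members' median counts ALDH1L1, which was not called and passed the filter on low counts only through the MS1943 libraries. In bulk samples, fewer cells of a type and less RNA per cell cannot be told apart.

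**Figure D1:**
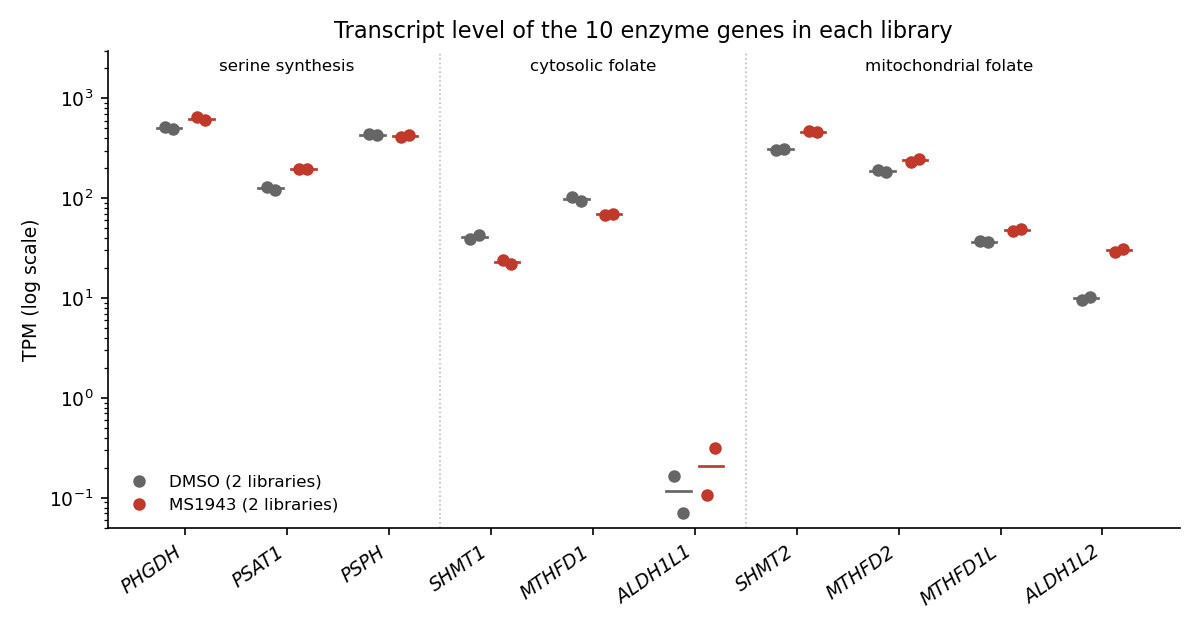
Length-scaled abundance (TPM, log scale) of the 10 genes, grouped by role; points are single libraries (2 DMSO, 2 MS1943) and short lines the group means. PHGDH is the highest gene in both groups at a mean of 505 and 629 TPM, and ALDH1L1 lies far below the others at 0.118 and 0.210 TPM.

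Levels of different genes were compared in TPM, which divides by transcript length. PHGDH stood highest in both groups, followed with DMSO by PSPH at a mean of 435 TPM, SHMT2 at 308 TPM and MTHFD2 at 187 TPM. PSAT1 came next at 126 TPM and MTHFD1 at 97.8 TPM, and SHMT1, MTHFD1L and ALDH1L2 followed at 41.0, 36.8 and 9.94 TPM. With MS1943 the order changed at 2 places. SHMT2 passed PSPH (465 against 423 TPM), and SHMT1 fell from the seventh to the ninth place, at 23.2 TPM, below MTHFD1L at 48.5 TPM and ALDH1L2 at 30.1 TPM. No pair of neighbours in either order overlapped in the range of its 2 libraries, although 2 libraries give little hold on that range.

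Serine synthesis begins with PHGDH, 3-phosphoglycerate dehydrogenase (chromosome 1, 119648411 to 119744226 on the plus strand, GENCODE 29 on hg38, as for all positions below unless another source is named). It stood at 613 and 567 CPM with DMSO and at 833 and 774 CPM with MS1943. Both MS1943 libraries lay above both DMSO libraries, and the log2 fold change was 0.45 ± 0.06 (SE, edgeR adjusted p = 5.8e-06). A single annotated transcript, PHGDH-202, carried 98.4% to 99.2% of the gene's TPM in every library.

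PSAT1, phosphoserine aminotransferase, takes the second step (chromosome 9, 78297143 to 78330093, plus strand). It stood at 176 and 156 CPM with DMSO and at 283 and 286 CPM with MS1943. The groups did not overlap, and its rise, 0.78 ± 0.06 (SE, log2; edgeR adjusted p = 1.9e-09), was the largest of the 3 serine synthesis genes. PSAT1-202 held 91.8% and 88.1% of the TPM with DMSO and 89.8% and 91.0% with MS1943, so the mix of its 2 transcripts overlapped between the groups.

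PSPH, the phosphatase that takes the last step (chromosome 7, 56011051 to 56051604, minus strand), did not pass the test. It stood at 326 and 304 CPM with DMSO and at 334 and 348 CPM with MS1943, and its log2 fold change was 0.11 ± 0.06 (edgeR adjusted p = 0.10). In CPM the groups did not overlap, whereas in TPM they did, at 443 and 427 with DMSO and 411 and 435 with MS1943. With protein-coding transcripts alone PSPH was called higher, at a log2 fold change of 0.24 (adjusted p = 0.00082), and likewise at 0.16 without DMSO replicate 1 (adjusted p = 0.012). Transcripts annotated for nonsense-mediated decay, the pathway that removes transcripts with early stop codons, held 31.6% and 32.6% of its TPM with DMSO and 27.8% and 26.9% with MS1943. Its value is also uncertain because reads can be split with the pseudogene PSPHP1, which took 1632 and 1708 reads with DMSO and 1353 and 950 with MS1943, against 15915 to 22847 reads for PSPH.

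The genes next to PHGDH did not all move with it. Of the other protein-coding genes within 500 kb, ZNF697, the next gene on the chromosome and on the other strand, stood at 11.0 and 10.2 CPM with DMSO and at 21.6 and 22.4 CPM with MS1943 (log2 fold change 1.06 ± 0.08, edgeR adjusted p = 5.5e-10). SEC22B stood at 110 and 101 CPM with DMSO and at 185 and 184 CPM with MS1943 (log2 fold change 0.81 ± 0.06, edgeR adjusted p = 4.0e-10). NOTCH2, a cell surface receptor, stood at 270 and 295 CPM with DMSO and at 278 and 261 CPM with MS1943, with overlapping groups and no call (log2 fold change -0.07 ± 0.06). HSD3B1 and HSD3B2 were called higher at 16 reads or fewer per library, and HAO2, REG4 and ADAM30 had too few reads to be tested. HSD3B1 and HSD3B2 passed the filter on low counts only through the MS1943 libraries, so the filter favoured calls in that direction.

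Among the cytosolic folate enzymes, SHMT1, which moves the carbon unit from serine to tetrahydrofolate in the cytosol (chromosome 17, 18327860 to 18363563, minus strand), stood at 44.9 and 43.7 CPM with DMSO and at 28.0 and 27.1 CPM with MS1943. It fell by 0.68 ± 0.06 (SE, log2; edgeR adjusted p = 1.0e-08), and the 2 groups were far apart beside an SD of 0.83 CPM with DMSO and 0.61 CPM with MS1943. Both of its main coding transcripts were lower: SHMT1-201, of 483 codons, went from 15.4 and 15.1 TPM to 7.42 and 7.71 TPM, and SHMT1-203, of 444 codons, from 17.4 and 17.2 TPM to 10.8 and 11.0 TPM. The 3′ end of SHMT1 overlaps that of SMCR8 on the other strand, which was higher with MS1943 at a log2 fold change of 0.61, and reads of the shared stretch cannot be told apart without strand.

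MTHFD1 is a cytosolic protein with several activities that interconvert the one-carbon forms of tetrahydrofolate (chromosome 14, 64388031 to 64463457, plus strand). It stood at 166 and 153 CPM with DMSO and at 122 and 121 CPM with MS1943. No MS1943 library reached the DMSO range, and the gene fell by 0.39 ± 0.06 (edgeR adjusted p = 6.9e-06). The transcript MTHFD1-201 held 71.2% to 75.0% of its TPM, with overlapping shares in the 2 groups. ZBTB25, which overlaps it on the other strand, held 322 to 672 reads per library against 5533 to 11458 for MTHFD1.

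ALDH1L1, the cytosolic 10-formyltetrahydrofolate dehydrogenase (chromosome 3, 126103562 to 126197994, minus strand), was close to the limit of detection. It held 8 and 9 reads with DMSO and 17 and 13 reads with MS1943, beside a floor of 3 reads per library. It passed the filter on low counts only through the MS1943 libraries. Its log2 fold change of 1.14 ± 0.50 was not called (edgeR adjusted p = 0.056), and in TPM, at 0.166 and 0.0702 with DMSO and 0.107 and 0.314 with MS1943, the groups overlapped. No ratio of ALDH1L2 to ALDH1L1 is given for that reason.

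The mitochondrial set begins with SHMT2, the mitochondrial serine hydroxymethyltransferase (chromosome 12, 57229327 to 57234935, plus strand). It stood at 257 and 245 CPM with DMSO and at 429 and 423 CPM with MS1943. The rise of 0.76 ± 0.06 (SE, log2; edgeR adjusted p = 8.8e-10) was the second largest of the set, and the groups did not overlap.

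MTHFD2, the mitochondrial methylenetetrahydrofolate dehydrogenase and cyclohydrolase (chromosome 2, 74198562 to 74217565, plus strand), stood at 218 and 196 CPM with DMSO and at 288 and 290 CPM with MS1943. The log2 fold change was 0.48 ± 0.06 (edgeR adjusted p = 1.2e-06), and the groups did not overlap. About as much of its TPM was assigned to MTHFD2-205 as to all its other transcripts together: 52.6% and 51.0% with DMSO and 51.4% and 49.5% with MS1943. That transcript is annotated for nonsense-mediated decay and has a reading frame of 37 codons, against 350 for the coding transcript MTHFD2-201. MTHFD2-201 stood at 24.1 and 23.8 TPM with DMSO and at 31.9 and 31.4 TPM with MS1943, and MTHFD2-205 at 101 and 92.6 TPM and at 119 and 124 TPM, so both were higher in each MS1943 library than in either DMSO library. Salmon divides the reads of overlapping transcripts by a model, and the error of that division is not in the files, so values of single transcripts are given without a test.

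MTHFD1L, the mitochondrial formyltetrahydrofolate synthetase that releases formate (chromosome 6, 150865549 to 151101887, plus strand), stood at 68.4 and 65.6 CPM with DMSO and at 89.3 and 88.5 CPM with MS1943. Its rise of 0.41 ± 0.05 (edgeR adjusted p = 2.4e-06) was the smallest of the 4 mitochondrial genes, and the groups did not overlap. Its main transcript, MTHFD1L-212, has a reading frame of 913 codons and held 63.8% and 64.3% of the TPM with DMSO and 59.1% and 55.1% with MS1943. MTHFD1L-203, which starts in another first exon and has 978 codons, held 16.3% and 17.2% with DMSO and 15.9% and 15.1% with MS1943. In level, both were higher with MS1943: MTHFD1L-212 went from 23.8 and 23.4 TPM to 28.0 and 27.4 TPM, and MTHFD1L-203 from 6.08 and 6.26 TPM to 7.56 and 7.49 TPM.

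ALDH1L2, which oxidises 10-formyltetrahydrofolate in mitochondria to carbon dioxide and tetrahydrofolate and makes NADPH (chromosome 12, 105019784 to 105084577, minus strand), had the largest change of the 10 genes. It stood at 45.5 and 41.1 CPM with DMSO and at 151 and 153 CPM with MS1943. The log2 fold change was 1.81 ± 0.06 (edgeR adjusted p = 6.4e-15). The full coding transcript ALDH1L2-201 rose with the gene, from 7.89 and 7.59 TPM to 23.5 and 23.9 TPM. NOPCHAP1 overlaps the gene on the other strand and held 515 to 772 reads per library, against 2993 to 10017 for ALDH1L2.

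**Figure D2:**
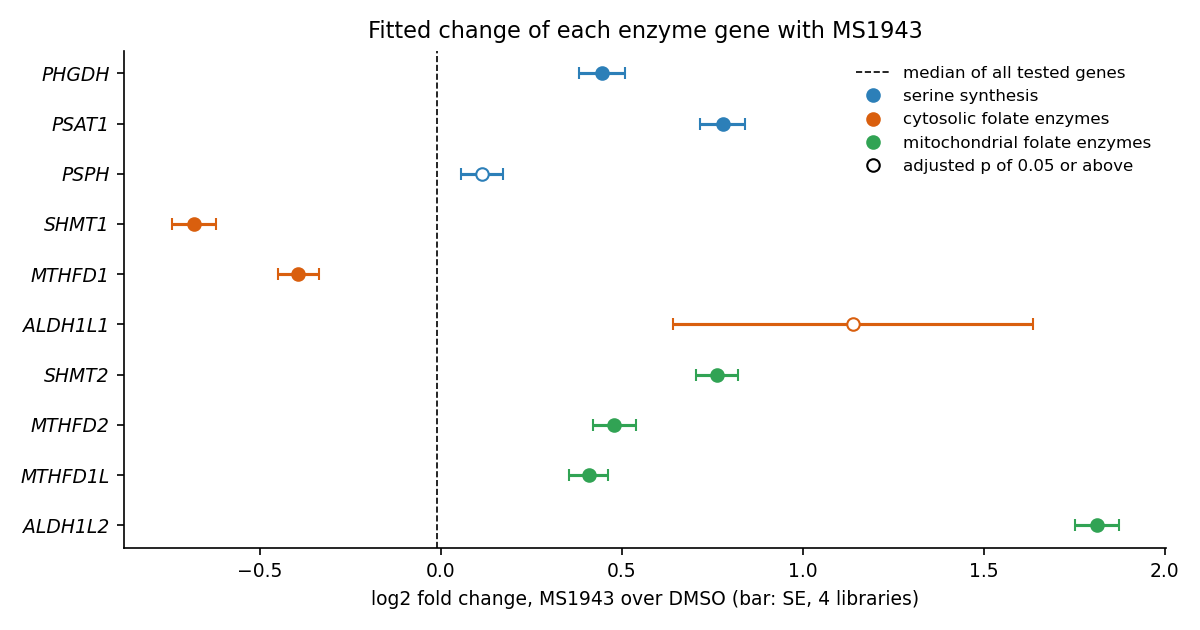
Fitted log2 fold change of each gene with MS1943 over DMSO (edgeR, 4 libraries); bars are the SE, open circles mark the 2 genes with an adjusted p of 0.05 or above, and the dashed line is the median of all tested genes, -0.01. The 4 mitochondrial genes lie between 0.41 and 1.81, and SHMT1 and MTHFD1 lie at -0.68 and -0.39.

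The contrast of compartments was summed in TPM. The 4 mitochondrial genes together stood at 544 and 539 TPM with DMSO and at 774 and 793 TPM with MS1943, and the 3 cytosolic genes at 142 and 136 TPM and at 92.5 and 91.9 TPM. The mitochondrial sum counts every SHMT2 transcript. The protein-coding SHMT2 transcripts with the upstream first exon, described below, were lower, at 142 and 145 TPM with DMSO and 114 and 123 TPM with MS1943. The summed ratio was not computed with those SHMT2 transcripts alone. The ratio of mitochondrial to cytosolic transcripts was 3.84 and 3.96 with DMSO and 8.37 and 8.62 with MS1943, a difference of 1.12 on the log2 scale. Every MS1943 ratio lay above every DMSO ratio, and with 2 libraries against 2 the exact two-sided permutation test gave p = 0.333, the smallest value it can give. Serine synthesis stood at a summed 1089 and 1042 TPM with DMSO and 1258 and 1239 TPM with MS1943.

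Each pair of counterparts moved in the same direction. SHMT2 over SHMT1 was 7.74 and 7.30 with DMSO and 19.4 and 20.8 with MS1943, a log2 difference of 1.42, which was 0.55 with only the protein-coding SHMT2 transcripts that hold the upstream first exon, described with the SHMT2 transcripts. MTHFD1L over MTHFD1 was 0.365 and 0.389 with DMSO and 0.695 and 0.715 with MS1943, a log2 difference of 0.90, so MTHFD1L remained the lower of the 2 in every library. MTHFD2 over MTHFD1 was 1.88 and 1.94 with DMSO and 3.38 and 3.60 with MS1943, a log2 difference of 0.87. No pair overlapped between the groups, and for each of them the exact permutation test again gave its smallest value, p = 0.333. These ratios share genes and libraries and are not independent of each other or of the changes of the single genes.

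**Figure D3:**
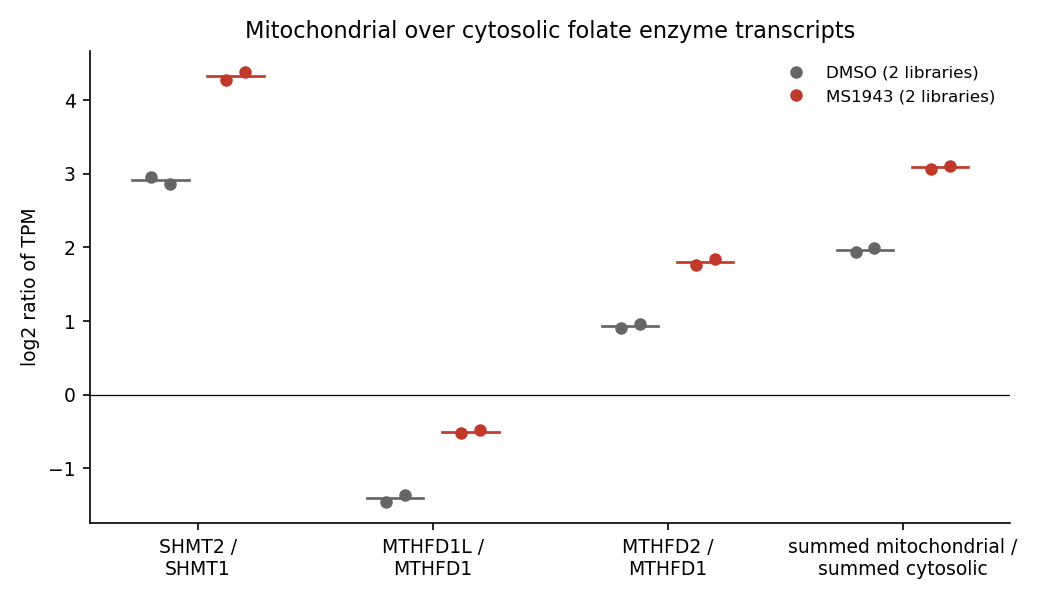
Log2 ratio of TPM for 3 pairs of mitochondrial over cytosolic enzymes and for the summed sets; points are single libraries (2 DMSO, 2 MS1943) and lines the group means. In each of the 4 ratios both MS1943 libraries lie above both DMSO libraries, by 0.87 to 1.42 on average.

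SHMT2 transcripts begin in different first exons, and this bears on the contrast of compartments. GENCODE 29 places the start codon of SHMT2-201, with 504 codons, at position 57229779 of chromosome 12 in an upstream first exon. In SHMT2-202, which begins in a first exon further downstream and has 483 codons, the start codon lies at position 57230833, in the exon that SHMT2-201 uses as its second. The shorter reading frame lacks the first 21 codons. As background, the long form carries the signal for import into mitochondria, and a shorter form without it has been described in the cytosol and nucleus. The stretch that separates the 2 start codons in SHMT2-201 is shown because it is what the shorter reading frame lacks; it runs 5′ to 3′ over the splice junction between positions 57229811 and 57230803, and capitals mark the 2 start codons:
SHMT2-201 from the upstream to the downstream start codon: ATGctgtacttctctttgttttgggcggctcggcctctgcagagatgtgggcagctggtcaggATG

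The split by first exon was made after the transcript values were seen. The 13 transcripts with the upstream first exon summed to 195 and 198 TPM with DMSO and to 249 and 251 TPM with MS1943. The 18 transcripts with a downstream first exon summed to 110 and 112 TPM with DMSO and to 217 and 210 TPM with MS1943. The downstream transcripts thus stood at 1.93 times their DMSO mean with MS1943 and the upstream transcripts at 1.27 times. In TPM, the upstream sum rose only with SHMT2-213 counted, a transcript with no annotated reading frame. Without it the upstream sum was 178 and 171 TPM with DMSO and 169 and 177 TPM with MS1943, and the groups overlapped. The same sum was not computed in TMM-scaled reads, so the overlap is stated for TPM alone. Other upstream transcripts moved both ways. SHMT2-226, annotated for nonsense-mediated decay, went from 18.0 and 20.0 TPM to 25.2 and 26.2 TPM. SHMT2-219 and SHMT2-231 of the same type were also higher without overlap, and the coding SHMT2-223 and SHMT2-232 were lower. The 4 protein-coding upstream transcripts summed to 142 and 145 TPM with DMSO and were lower with MS1943, at 114 and 123 TPM, without overlap. They include SHMT2-220, whose annotated start codon, at position 57231885, lies past both start codons above. SHMT2-220 overlapped between the groups, at 44.5 and 46.1 TPM with DMSO and 45.9 and 44.1 TPM with MS1943. The downstream share of SHMT2 TPM went from 35.9% and 36.0% to 46.5% and 45.4%, and as a share of estimated reads from 50.3% and 52.1% to 62.8% and 61.4%, with no overlap between the groups on either scale. The upstream sum rests mostly on short annotated transcripts, SHMT2-223, SHMT2-220 and SHMT2-213, of 768, 964 and 837 bases, while SHMT2-201 itself was assigned 0.862 TPM or less in every library, and not every transcript with the upstream first exon is annotated with its start codon.

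SHMT2-202 alone went from 64.1 and 69.8 TPM to 137 and 132 TPM. SHMT2-205, also with the downstream start codon, overlapped between the groups, at 41.3 and 32.3 TPM with DMSO and 39.4 and 34.2 TPM with MS1943. The largest gain in TPM among the transcripts with the upstream first exon was in SHMT2-213, at 16.7 and 26.9 TPM with DMSO and 80.0 and 74.2 TPM with MS1943. The coding transcripts SHMT2-223 and SHMT2-232 of the same first exon were lower with MS1943, at 71.4 and 80.3 TPM against 61.3 and 68.3 TPM, and at 26.2 and 17.6 TPM against 6.50 and 10.6 TPM. With the upstream transcripts alone, the ratio of SHMT2 to SHMT1 was 4.95 and 4.66 with DMSO and 10.3 and 11.3 with MS1943, a log2 difference of 1.17, beside 1.42 with all SHMT2 transcripts. Without SHMT2-213 that difference was 0.81, where the upstream sum did not rise in TPM and SHMT1 fell. With the protein-coding upstream transcripts alone the difference was 0.55. Transcripts of the protein-coding type held 81.8% and 81.0% of SHMT2 TPM with DMSO and 67.0% and 67.2% with MS1943.

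**Figure D4:**
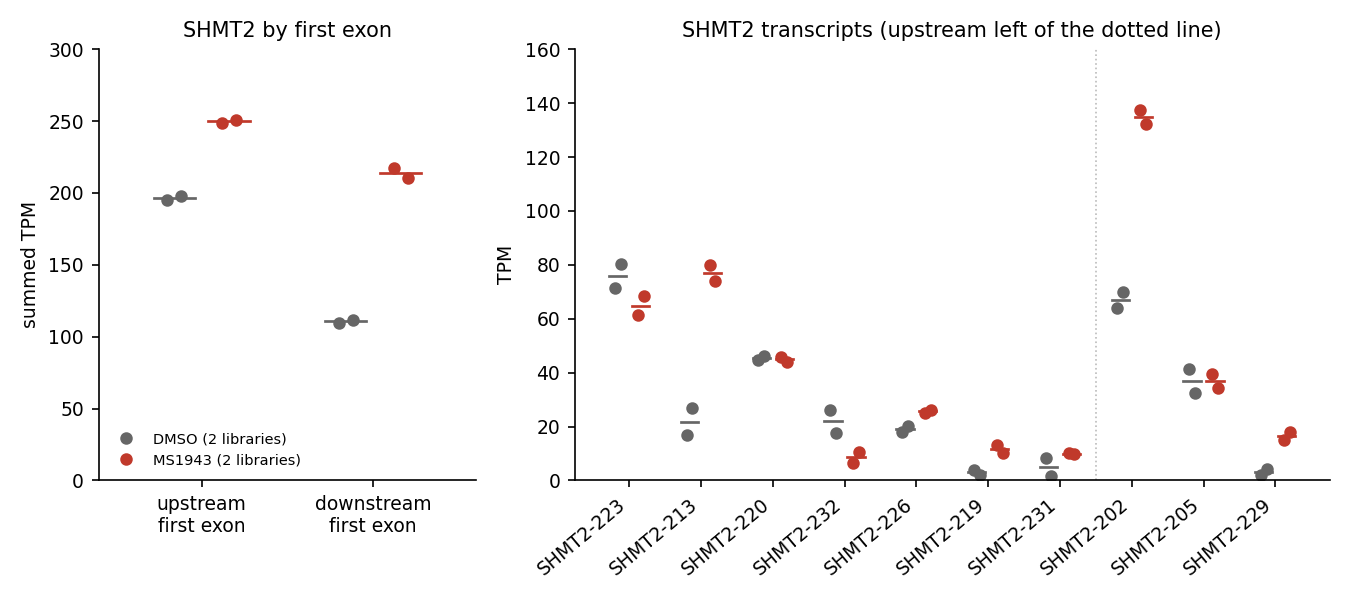
SHMT2 in TPM, summed by annotated first exon (left) and for the transcripts that reach 10 TPM in a library (right); points are single libraries (2 DMSO, 2 MS1943) and lines the group means. The downstream sum rises from 110 and 112 to 217 and 210 TPM, and SHMT2-202 and SHMT2-213 show the largest gains in TPM among single transcripts.

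The other genes of the pathway did not follow 1 direction. Of 37 listed, 35 were tested, and 11 were higher and 14 lower with MS1943, with a median log2 fold change of -0.13. Over all tested genes 30.0% were higher and 29.4% lower, so a count of calls alone sets none of the pathway lists below apart. The glycine cleavage system, which releases a carbon unit from glycine in mitochondria, had 0 of 4 genes higher and 1 lower. That gene was GCSH, which carries the intermediate and has copies elsewhere in the genome that can share its reads, at 85.3 and 92.8 CPM with DMSO and 66.8 and 84.0 CPM with MS1943 (log2 fold change -0.25, edgeR adjusted p = 0.011). Its call was lost without MS1943 replicate 1 (-0.10), with transcript length offsets (-0.01) and with protein-coding transcripts alone (-0.22). GLDC, the decarboxylase of the system, was at 0.400 CPM or less in every library.

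Of 9 other folate enzymes tested, 5 were lower and 1 higher. TYMS, which uses a folate carbon unit to make thymidylate, went from 215 and 206 CPM to 108 and 113 CPM (-0.93 ± 0.06, edgeR adjusted p = 3.8e-11). GGH, which removes glutamate tails from folates, went from 55.1 and 50.1 CPM to 25.8 and 27.3 CPM (-0.99 ± 0.07, edgeR adjusted p = 1.4e-10). Both of these were lower in each MS1943 library than in either DMSO library. MTFMT, which formylates the initiator tRNA of mitochondria, was also lower, at a log2 fold change of -0.30. MTHFD2L, a relative of MTHFD2, was higher, at 0.24. The call of MTFMT was lost with DESeq2 and without MS1943 replicate 2, and that of MTHFD2L in 5 of 9 alternatives.

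Carriers were split, with 5 of 11 higher and 4 lower. SLC6A9, a glycine transporter of the cell surface, went from 83.2 and 81.9 CPM to 175 and 168 CPM (log2 fold change 1.05 ± 0.05, edgeR adjusted p = 4.3e-12). SLC1A4, which carries serine and other small neutral amino acids, went from 53.2 and 49.6 CPM to 90.2 and 91.4 CPM (0.82 ± 0.06, edgeR adjusted p = 2.7e-10). SLC25A38, a mitochondrial glycine carrier, went from 26.9 and 27.1 CPM to 44.4 and 43.3 CPM (0.70 ± 0.06, edgeR adjusted p = 6.9e-09). The sideroflexins, a family that includes mitochondrial serine carriers, did not move together. SFXN3 was higher, at 6.64 and 6.01 CPM with DMSO and 18.3 and 18.2 CPM with MS1943 (1.53 ± 0.09, edgeR adjusted p = 1.5e-11). SFXN2 was lower, at 10.4 and 10.7 CPM with DMSO and 4.24 and 4.48 CPM with MS1943 (-1.28 ± 0.10, edgeR adjusted p = 2.6e-09), and SFXN1 was not called. SLC25A32, the mitochondrial folate carrier, was higher, at a log2 fold change of 0.30, a call lost with protein-coding transcripts alone. The 3 listed proteins that take folate up at the cell surface, SLC19A1, SLC46A1 and FOLR1, were lower, at log2 fold changes of -0.28, -0.19 and -0.73. DESeq2 did not call SLC46A1 or FOLR1, and SLC46A1 was also lost in 3 other alternatives.

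Among the genes that use carbon units or serine, 5 of 11 tested were higher and 4 lower. DMGDH, the mitochondrial dimethylglycine dehydrogenase, went from 1.69 and 1.41 CPM to 5.57 and 6.47 CPM (log2 fold change 1.96 ± 0.15, edgeR adjusted p = 1.5e-09), a rise from a low level. SPTLC1 and SPTLC2, which join serine to palmitoyl-CoA in sphingolipid synthesis, were higher, at log2 fold changes of 0.36 and 0.23, and so was SDSL, related to serine dehydratase, at 0.52. MTRR, the reductase that keeps methionine synthase active, was higher, at 0.49, but its log2 fold change turned to -0.04 with protein-coding transcripts alone. Methionine synthase itself, MTR, was lower, at -0.29. ATIC of purine synthesis, the serine racemase SRR and the glycine methyltransferase GNMT were lower, at -0.17, -0.43 and -0.74. The call of SPTLC2 was lost with total-read scaling, of ATIC without DMSO replicate 1, of SRR with transcript length offsets and of GNMT, at under 1 CPM, in 5 of 9 alternatives.

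**Figure D5:**
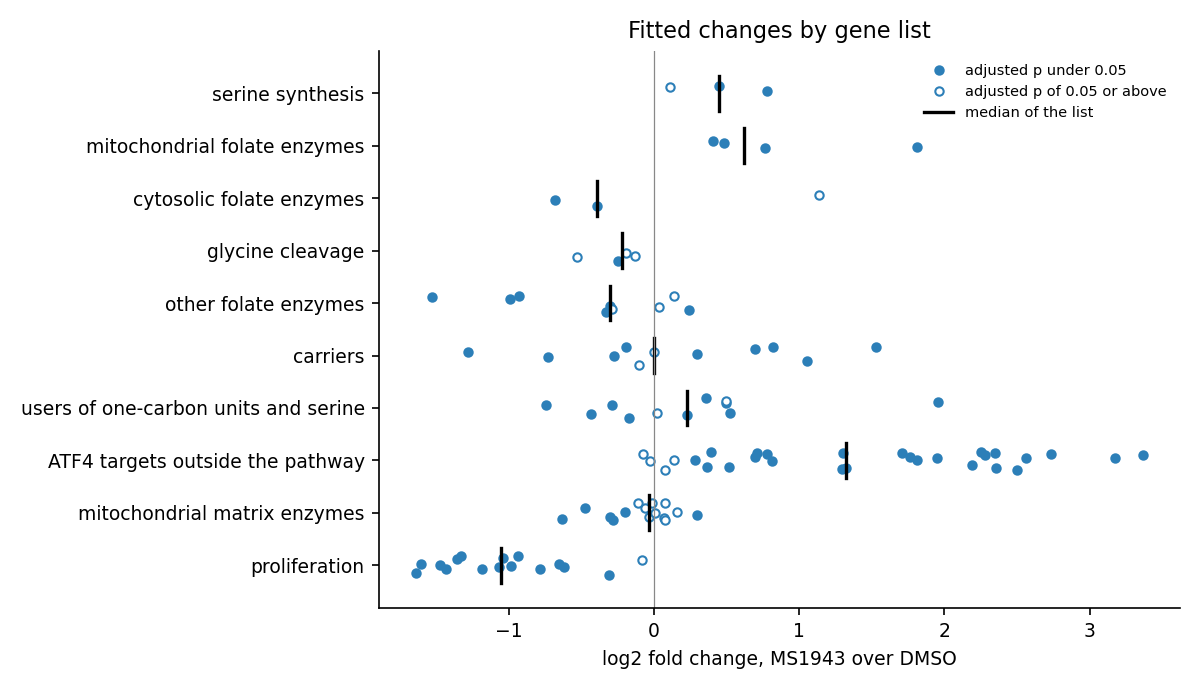
Fitted log2 fold change with MS1943 over DMSO of every tested gene, by list; filled circles passed an adjusted p of 0.05, open ones did not, and black bars are list medians (points are spread vertically for legibility). The mitochondrial folate enzymes lie to the right of zero, while the mitochondrial matrix enzymes centre near it and proliferation genes lie to its left.

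Comparison lists were read beside the members. ATF4 is the transcription factor of the integrated stress response, and genes of serine synthesis and the mitochondrial folate cycle are known among its targets. Of the members in these groups, PSPH alone was not called. The shares over all tested genes, to be read beside the lists that follow, were 30.0% higher and 29.4% lower. Of 29 ATF4 targets outside the pathway, 25 were higher and 0 lower, with a median log2 fold change of 1.32. The 4 of smallest adjusted p were DDIT3, a stress factor, which went from 5.51 and 5.65 CPM to 50.7 and 50.0 CPM, PPP1R15A, a phosphatase subunit of the same response, from 29.5 and 31.6 CPM to 179 and 181 CPM, the secreted glycoprotein STC2, from 52.0 and 51.6 CPM to 266 and 261 CPM, and ATF3, from 12.2 and 12.1 CPM to 67.5 and 70.4 CPM. Among the members only ALDH1L2 lay above the list's median of 1.32. FGF21, counted among the 25 higher genes, had 4 and 3 reads with DMSO and 31 and 28 with MS1943. It passed the filter on low counts only through the MS1943 libraries, so the filter favoured a call in that direction. The ATF4 transcript itself was not called, at a log2 fold change of 0.05 ± 0.06. MYC is a factor known to act on SHMT2 and other folate genes. Its transcript went from 96.3 and 93.1 CPM to 264 and 271 CPM (2.83-fold, edgeR adjusted p = 3.4e-14). NFE2L2 was not called at -0.03 ± 0.06. The part of ATF4, MYC and NFE2L2 in the members' changes was not tested, and a single contrast cannot tell their parts apart.

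Enzymes of the mitochondrial matrix outside the pathway served as a list for the compartment. Of 15, 1 was higher and 5 lower, with a median log2 fold change of -0.03, beside 0.62 for the 4 mitochondrial folate enzymes. The latter median counts all SHMT2 transcripts. IDH2 was lower, at a log2 fold change of -0.63, as was SUCLG2 at -0.48. Of 16 proliferation genes, 0 were higher and 15 lower, with a median of -1.05. The summed level of the proliferation list went from 3252 and 3150 CPM to 1600 and 1609 CPM. TYMS, SHMT1 and MTHFD1 were lower in the same libraries, and the part of cell number, cell cycle and RNA per cell in their levels was not tested.

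The genes nearest in profile to the members of largest change were sought among 8746 protein-coding genes whose log2 CPM averaged at least 4, by the distance between centred log2 CPM over the 4 libraries. Nearest to ALDH1L2 were PELO, PHTF1 and AKR1B1, at distances of 0.04, 0.04 and 0.05. Nearest to SHMT1 were PRC1, a protein of the mitotic spindle midzone, FEN1, the flap endonuclease of DNA replication, and the phosphatase subunit PPP2R5D, at distances of 0.01, 0.02 and 0.02. With 4 libraries in 2 groups such a profile holds little more than the size of the change, and many genes share it.

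Promoters of 7 of the 10 members matched the RefSeq table (GRCh38.p14), which gives the stretch from 250 bases before to 50 bases after a start site; PSPH, SHMT2 and ALDH1L2 have no entry there. The motifs sought on both strands were TGATGNAA, the core of the element bound by ATF4 with C/EBP partners, and CACGTG, the E box bound by MYC. TGATGNAA was present in 3.62% and CACGTG in 7.26% of all 35116 promoter windows in the table. Counted by gene, as for the lists here, TGATGNAA was present for 1217 and CACGTG for 2396 of 27305 genes with a window. TGATGNAA was found in the windows of 1 member, MTHFD1L, where 3 of its 4 windows overlap and hold the same match. It was also found for 8 of the 25 ATF4 targets outside the pathway that have a window, in 8 of their 38 windows. Of the 9 carriers with a window, 2 held it, in 2 of their 15 windows: SLC1A4 was higher with MS1943 and the other was not called. The other pathway lists had no match. In MTHFD1L, TGATGNAA lies at chr6:150866357-150866364 and covers the annotated start codon of MTHFD1L-212. The annotated first base of that transcript is at position 150866333, and an E box lies just before TGATGNAA. CACGTG was found in 2 members, MTHFD1L and MTHFD1. The windows are printed to show the matches, in capitals, 5′ to 3′ on the plus strand:
MTHFD1L, chr6:150866348-150866373, TGATGNAA: cgccggctcTGATGCAAtcgcgccgg
MTHFD1L, chr6:150866323-150866348, CACGTG: gcccggctcCACGTGcgcagccggcc
MTHFD1, chr14:64388329-64388354, CACGTG: gtccctaagCACGTGggttgggttgt

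Of the 2 members with an E box, MTHFD1L was higher with MS1943 and MTHFD1 lower. PSPH, SHMT2 and ALDH1L2 had no window to read, and the part of the E box in these changes was not tested. The single windows of PHGDH, PSAT1, SHMT1 and MTHFD2 and the 2 windows of ALDH1L1 held neither motif. A match is a run of letters and was not tested as a binding site in these cells.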

How the data were processed

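Poly(A)-selected RNA of 4 libraries was sequenced with the TruSeq RNA v2 kit, which does not mark strand, per the labels' protocols. The submitters' processing notes name Salmon 0.9.1, R 3.4.3, DESeq2 and hg38. The release of the transcript annotation was not given in the sources used here, nor were Salmon's settings. The deposited files hold estimated counts of reads and TPM per transcript, per the file headers. Of 197653 transcripts, 193505 matched GENCODE 29 without their version, and the other 4148 held under 0.5% of the reads of each library and were left out. Estimated counts were summed per gene and rounded, and TPM was summed per gene and used for levels and ratios between genes.

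Genes were tested with the quasi-likelihood F test of edgeR 4.0.16 (R 4.3.3, TMM, filterByExpr by group, treatment alone, Benjamini-Hochberg over 19358 genes), and a gene is called at an adjusted p under 0.05. CPM are TMM-scaled, and the SE is the size of the log2 fold change over the square root of F. The common biological coefficient of variation was 0.0478. A floor of 3 reads stands for 0.0400 to 0.0656 CPM and covers counting error only.

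Members and lists were chosen with earlier results of these data known. Named are the members, genes of the listed pathway and comparison lists, protein-coding genes within 500 kb of PHGDH, overlapping genes and pseudogenes, and the 3 nearest profiles of the members with the largest rise and fall; EZH2, IDH2 and SUCLG2 were added after their values were seen. A few genes of these lists are counted but not reported here by name. Epithelial, leukocyte, fibroblast and endothelial markers were also listed: summed CPM of the leukocyte list was 1.14 and 0.920 with DMSO and 32.2 and 29.7 with MS1943, that of the fibroblast list 21.2 and 20.9 and 31.9 and 28.2, and that of the endothelial list 1.72 and 1.37 and 0.677 and 0.721. Of the receptor genes that define the class, PGR had 0 reads, ESR1 3.17 to 5.11 CPM and ERBB2 63.3 to 82.0 CPM.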

Additional observations from a re-analysis of the deposited data

How the results depend on the processing

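The 8 called members kept their direction and their call in all 9 alternatives: total-read scaling, DESeq2 1.42.0, no filter on low counts, transcript length offsets, protein-coding transcripts alone, and leaving out each library in turn. The count of higher members was 6 or 7 and that of lower members 2 throughout. Of the 23 other pathway genes called and reported, 12 kept call and direction in every alternative. With TMM-scaled CPM in place of TPM, the log2 difference of MTHFD1L over MTHFD1 moved from 0.90 to 0.80 and that of the summed compartments from 1.12 to 1.2. With protein-coding transcripts alone, SHMT2 over SHMT1 moved from 1.42 to 1.17 and the summed compartments to 0.98. In alternatives chosen after seeing the data, SHMT2 over SHMT1 was 1.17 with the upstream first exon alone, 0.81 when SHMT2-213, which has no annotated reading frame, was also left out, and 0.55 with the protein-coding upstream transcripts alone. Without each library in turn, SHMT2 over SHMT1 ranged from 1.36 to 1.47, MTHFD1L over MTHFD1 from 0.86 to 0.95, MTHFD2 over MTHFD1 from 0.82 to 0.91 and the summed compartments from 1.10 to 1.15. Signs turned for MTRR with protein-coding transcripts alone (-0.041, adjusted p = 0.649) and for the share of MTHFD1L-203 in estimated reads (0.14 percentage points); the cause was not tested. No paired analysis was possible because the labels carry no replicate numbers; the numbers used here follow accession order, and the letters in the sample titles are not explained. With 2 libraries per group the exact test of a ratio cannot fall under 0.333, and ALDH1L1 lies too near the floor for a ratio.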
